A study of Mus musculus with 18 samples.

Results

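The major histocompatibility complex (MHC) of the mouse is named H2, and its genes present peptides to T cells. The 44 genes described here, of 24346 gene symbols measured, are those whose symbol starts with H2- and a letter, without H2-Ke2 and H2-Ke6, together with Cd74 and Ciita. They were chosen by name and comprise 3 classical class I genes, 28 non-classical class I genes, 11 class II genes and 2 others, the pseudogenes H2-K2 and H2-Ea-ps. Poly(A) RNA was sequenced from liver, intestine and lung tissue of male C57BL/6 mice aged 9 weeks. All mice had cecal ligation and puncture (CLP), an operation that causes sepsis from gut bacteria, and tissue was taken 24 h later. In the H2 groups the mice breathed 7% hydrogen gas continuously from the time of surgery, in 1 cage inside a gas box, so that gas and housing cannot be told apart. In the control groups the mice had CLP without hydrogen. Each of the 6 groups had n = 3 libraries, and the labels do not say which organs came from the same mouse. Mice that had a sham operation were not analysed here. Below, "H2" before an organ means hydrogen gas, and "H2-" at the start of a symbol means the gene complex.

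Class I molecules sit on nearly all nucleated cells and show peptides from the cytosol to CD8 T cells. Their transcription is driven by the transactivator Nlrc5 and by interferon, and the light chain B2m and the Tap transporter are needed for a stable surface molecule. Class II molecules are made by B cells, dendritic cells, macrophages and some epithelia, under control of the transactivator Ciita. Cd74, the invariant chain, guards the class II groove until H2-DM loads a peptide, and H2-O restrains H2-DM. Low class II on blood monocytes is a known feature of human sepsis.

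The deposited levels are FPKM, fragments scaled to transcript length and library size, so that levels of genes can be set side by side. The 4 non-classical genes H2-M1, H2-M10.3, H2-M10.4 and H2-M11 were listed at 0 in every library, and 11 members never reached 1 FPKM. A gene was tested in an organ if its mean over the 6 libraries was at least 1 FPKM. That left 19 members in the liver, 29 in the intestine, 29 in the lung and 30 in the tests over all 18 libraries, and 13 members were tested in no organ. The pseudogene H2-Ea-ps was above 0 in 1 library, at 0.151 FPKM in control intestine 3.

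Of the 44 genes, 40 have a position in GENCODE vM21 on build mm10, and 38 of these lie on chromosome 17. H2-L, H2-Q8, H2-Q9 and H2-T9 have none there. H2-Q4 spans chr17:35379617-35385290 (plus strand), H2-D1 chr17:35262730-35267499 (plus), H2-Q10 chr17:35470089-35474563 (plus) and H2-T3 chr17:36185572-36190287 (minus). Ciita, on chromosome 16, and Cd74 lie outside it. Copies of one another limit what the class I values can say. Of the stretches of 50 bases in the transcripts of H2-Q4, 21.8% also occur in transcripts of other genes, most often H2-Q6 (9.68%). The share was 12.8% for H2-D1, 9.63% for H2-K1, 26.4% for H2-Q7, 32.9% for H2-T10 and 34.5% for H2-T22, but 0.894% for H2-T3 and 0 for H2-Ab1, H2-Eb1, Cd74 and Ciita. H2-Q6 and H2-Q8 show what this can do. In H2 intestine 3, H2-Q6 was at 0.00346 FPKM and H2-Q8 at 4.91 FPKM, whereas in H2 intestine 1 they were at 2.97 and 0.010 FPKM. H2-L, a gene that the C57BL/6 haplotype is known to lack, was listed between 20.3 FPKM (H2 liver 2) and 133 FPKM (control lung 1). Whether these values came from H2-D1 was not tested. H2-L is counted among the classical genes in every count and median by class below.

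Promoters of 5 members are shown because the results turn on these genes. They are H2-Q4 and H2-D1, with lower levels in H2 than in control livers and lungs, H2-Q10 and H2-T3, each found mainly in 1 organ, and the class II gene H2-Eb1. Each runs 5′ to 3′ from 250 bases before to 50 bases after the start of the gene in RefSeq on build GRCm38.p6. Capitals mark 4 short motifs, searched on both strands and chosen after these windows were read. They are the Y box TGATTGG, an interferon response element TTTCACTT, a kappa B-like motif GGGATTNCC and an X1-like motif GNAACNGAT. The windows are chr17:35379367-35379666 (plus strand) for H2-Q4, chr17:35262844-35263143 (plus) for H2-D1, chr17:35469839-35470138 (plus) for H2-Q10, chr17:36190102-36190401 (minus) for H2-T3 and chr17:34305617-34305916 (plus) for H2-Eb1.
H2-Q4: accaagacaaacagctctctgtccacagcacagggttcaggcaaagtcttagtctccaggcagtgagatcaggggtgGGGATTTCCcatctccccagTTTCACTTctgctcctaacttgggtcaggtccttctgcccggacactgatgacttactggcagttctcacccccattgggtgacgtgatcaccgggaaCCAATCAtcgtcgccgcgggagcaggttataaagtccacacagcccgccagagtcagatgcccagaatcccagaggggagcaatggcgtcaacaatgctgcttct
H2-D1: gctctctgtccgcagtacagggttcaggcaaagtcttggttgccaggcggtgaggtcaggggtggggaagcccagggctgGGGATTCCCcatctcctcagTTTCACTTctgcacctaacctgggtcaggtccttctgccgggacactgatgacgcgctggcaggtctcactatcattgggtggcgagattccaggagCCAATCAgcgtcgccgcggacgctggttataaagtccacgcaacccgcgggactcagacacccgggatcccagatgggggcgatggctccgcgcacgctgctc
H2-Q10: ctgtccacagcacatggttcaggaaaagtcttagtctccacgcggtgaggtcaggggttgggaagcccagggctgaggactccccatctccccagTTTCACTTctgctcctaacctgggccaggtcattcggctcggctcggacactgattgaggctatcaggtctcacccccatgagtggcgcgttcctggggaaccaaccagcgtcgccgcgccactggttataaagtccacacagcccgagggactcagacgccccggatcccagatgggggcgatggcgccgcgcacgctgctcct
H2-T3: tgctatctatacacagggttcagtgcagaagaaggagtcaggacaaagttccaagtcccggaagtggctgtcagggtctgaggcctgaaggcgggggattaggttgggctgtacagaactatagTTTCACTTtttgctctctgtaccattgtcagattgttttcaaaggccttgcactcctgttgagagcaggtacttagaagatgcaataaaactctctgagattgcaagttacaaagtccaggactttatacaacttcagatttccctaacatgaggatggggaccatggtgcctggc
H2-Eb1: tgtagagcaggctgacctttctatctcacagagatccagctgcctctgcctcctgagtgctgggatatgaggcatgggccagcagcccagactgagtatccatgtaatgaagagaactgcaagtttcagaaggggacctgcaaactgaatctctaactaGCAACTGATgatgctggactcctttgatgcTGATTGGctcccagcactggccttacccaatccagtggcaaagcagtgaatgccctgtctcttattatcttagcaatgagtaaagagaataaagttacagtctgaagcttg

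A promoter entry was found for 30 of the 44 members. The Y box stood in 2 of 2 classical, 13 of 20 non-classical and 7 of 8 class II promoters, and in 8.2% of 27025 promoters of all genes. The interferon element stood in 2 of 2 classical, 7 of 20 non-classical and 0 of 8 class II promoters, against 1.67% of all promoters. The kappa B-like motif stood in 2 of 2 classical and 3 of 20 non-classical promoters and in 0.984% of all. The X1-like motif stood in 3 of 8 class II promoters and in 2.02% of all. H2-Q4 and H2-D1 hold the same 3 motifs, with the Y box 55 and 53 bases before the start. H2-K1, H2-Q6 and H2-Q7 hold these 3 motifs too, and a link of the motifs to the levels was not tested. H2-Q10 and H2-T3 hold the interferon element and no match to the Y box in this window. A match is a run of letters and not a measured binding site.

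Marker lists set the organs apart in part. Summed FPKM of the 5 alveolar type 2 cell genes were 24383 to 38207 in the lung and at most 7.69 elsewhere. The 5 enterocyte genes summed to 1339 to 8619 FPKM in the intestine, at most 523 in the liver and at most 0.771 in the lung. The 4 hepatocyte genes summed to 15515 to 29546 FPKM in the liver, 3064 to 15548 in the intestine and at most 8.86 in the lung. In the intestine Apoa1 made up most of this, at 3061 to 15542 FPKM, while Alb was at most 1.22 FPKM there. The depth implied by the lowest FPKM steps ran from 8.68 M fragments (H2 intestine 2) to 15.7 M (H2 lung 2). Over all genes FPKM added up to 1142966 for H2 intestine 2 and to between 712858 and 850609 for the remaining 5 gut libraries. Some control libraries lay with the H2 libraries. Each library was placed over all genes tested in its organ, with 0 at the mean of the other control libraries and 1 at the mean of the other H2 libraries, itself left out. On that scale control liver 2 lay at 0.80 and control lung 3 at 0.76, beside 0.70 to 0.93 for H2 livers and 0.78 to 0.84 for H2 lungs. The other control libraries lay at -0.01 and -0.14 in the liver and at -0.20 and 0.18 in the lung. Intestinal libraries were mixed, with H2 libraries at 0.53, 0.86 and 0.44 and control libraries at 0.13, 0.56 and 0.27. Calls that change without control liver 2 or control lung 3 are given beside the result.

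The organs differed far more than the treatments, as the plot of levels in the control libraries shows. The class II genes of high level were highest in the lung and lowest in the liver. Cd74 averaged 412 ± 61.9 FPKM in control lungs, 145 ± 46.7 in control intestines and 19.1 ± 7.15 in control livers (SD, n = 3 each). H2-Aa, the alpha chain of the A molecule, averaged 366 ± 51.3, 96.0 ± 19.3 and 9.01 ± 2.05 FPKM in the same order. Ciita averaged 1.79 ± 0.695 FPKM in control lungs, 1.30 ± 1.44 in control intestines and 0.031 ± 0.026 in control livers. The 4 class II genes with a mean of at least 1 FPKM in every organ, Cd74, H2-Aa, H2-Ab1 and H2-Eb1, were called in each comparison by limma at an adjusted p under 0.05. They were higher by 4.40 to 5.21 on the log2 scale in control lungs than in control livers, by 1.54 to 1.93 in lungs than in intestines and by 2.75 to 3.27 in intestines than in livers, against medians of 1.17, 0.45 and 0.64 over all tested genes. The other 6 tested class II genes had liver means under 1 FPKM and entered only through the other organs, so that their direction against the liver was fixed. H2-Eb2, which was not tested, measured 0.110, 0.219 and 0.094 FPKM in control lungs and 0.053, 1.63 and 0.846 FPKM in control intestines. In whole tissue, fewer cells of a type and less RNA per cell cannot be told apart.

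**Figure D1:**
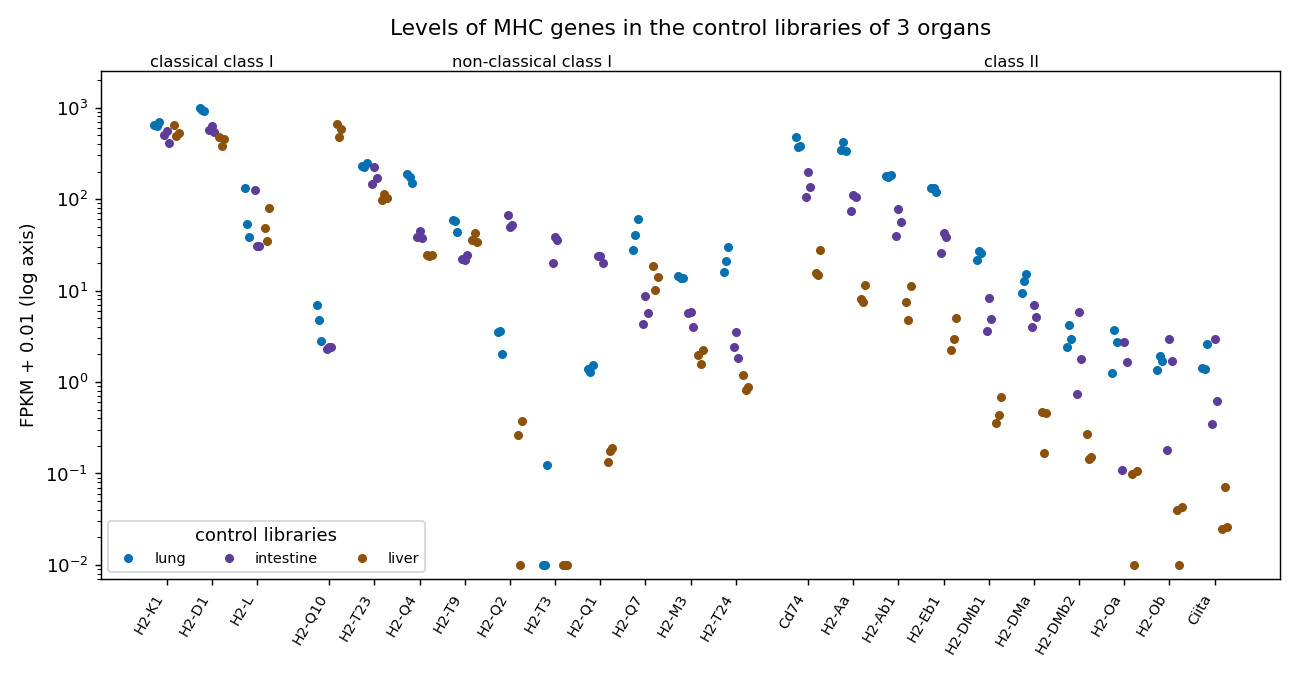
FPKM of 23 MHC genes in the 9 control libraries, on a log axis after adding 0.01, so that a point on the lowest line is a 0. Cd74, H2-Aa, H2-Ab1 and H2-Eb1 run from lung (blue) over intestine (purple) to liver (brown). Ciita, H2-DMb2, H2-Oa and H2-Ob overlap between lung and intestine. H2-Q10 stands high in the liver, and H2-T3, H2-Q2 and H2-Q1 stand high in the intestine.

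Several non-classical genes were almost confined to 1 organ among these 3. H2-Q10, which encodes a secreted class I molecule of the liver, averaged 4.86 ± 2.07 FPKM in control lungs, 2.38 ± 0.058 in control intestines and 575 ± 97.8 in control livers. H2-T3, the thymus leukaemia antigen gene, known from gut epithelium, averaged 31.4 ± 9.83 FPKM in control intestines and was at most 0.113 FPKM in any lung or liver library. H2-Q2 averaged 3.04 ± 0.900, 56.0 ± 9.24 and 0.205 ± 0.187 FPKM in control lungs, intestines and livers, and H2-Q1 averaged 1.39 ± 0.124, 22.5 ± 2.27 and 0.157 ± 0.030 FPKM. H2-Q4 averaged 171 ± 19.2, 40.4 ± 3.88 and 24.3 ± 0.515 FPKM. The classical genes differed less. H2-K1 averaged 661 ± 34.0, 491 ± 72.6 and 552 ± 77.7 FPKM and H2-D1 955 ± 31.2, 581 ± 43.4 and 438 ± 46.1 FPKM in control lungs, intestines and livers.

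Among the 30 tested members, 24 were higher and 1 lower in control lungs than in control livers, where 76% and 9.15% of all tested genes were. Between control lungs and intestines 20 were higher and 3 lower, against 51.3% and 17.6% of all genes. Between control intestines and livers 19 were higher and 5 lower, against 60% and 12.6%. Of the 30, 11 had a liver mean under 1 FPKM and passed only through other organs. Among the remaining 19, 15 were higher and 1 lower in lungs than in livers, 17 and 0 in lungs than in intestines, and 10 and 5 in intestines than in livers. Median-of-ratios scaling brought the all-gene medians to 0.044, -0.012 and 0.028. All 3 classical genes then lay below 0 in the lung-over-liver and intestine-over-liver differences, so no order of organs is given for them.

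The first question of the series is what hydrogen did to septic organs, and the test with most libraries takes the mean H2 over control change of the 3 organs. H2-Q4, a non-classical class I gene of the Q region, had lower levels under H2. It measured 17.3, 14.6 and 18.05 FPKM in H2 livers against 24.5, 23.7 and 24.6 FPKM in control livers. In the intestine it measured 24.2, 31.7 and 36.1 FPKM under H2 against 38.8, 44.8 and 37.5 FPKM in controls. In the lung it measured 134, 102 and 138 FPKM under H2 against 188, 174 and 150 FPKM in controls. The groups did not overlap in any of the organs, though the nearest intestine libraries were at 36.1 and 37.5 FPKM. Lying lower without overlap was shared by 13.1% of all genes tested for liver, 8.75% for intestine and 15.9% for lung. The mean change of H2-Q4 was -0.46 ± 0.09 on the log2(FPKM + 1) scale (SE, 95% interval -0.65 to -0.27). Its adjusted p was 0.0126 by limma over 13362 genes. It kept an adjusted p of 0.00335 to 0.0306 with each of the 18 libraries left out. These fits take the 18 libraries as independent, although organs may share a mouse. With the organs of 1 number averaged to 1 value, 3 against 3, the adjusted p was 0.0808 and the call was lost. That fit takes equal numbers as 1 mouse, which the labels do not say.

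H2-Q4 was the only member of 30 called in this test, a share below the 9.62% of all genes that were called. At an unadjusted p under 0.05 there were 5 members with lower and 1 with higher levels under H2, again a share below that of all genes, 30.7%. The others with lower levels were H2-Q10 (-0.37 ± 0.14, adjusted p = 0.0979), H2-D1 (-0.22 ± 0.09, adjusted p = 0.110), H2-T10 (-0.19 ± 0.07, adjusted p = 0.105) and H2-T9 (-0.21 ± 0.10, adjusted p = 0.154). H2-T10 averaged 0.515 FPKM in the liver and 0.647 in the intestine and passed the filter only through the lung (1.87 FPKM). H2-T3 had the higher level (0.35 ± 0.12, adjusted p = 0.0651), and since it was at or near 0 outside the intestine this mean restates the change there. By class, 1 of 3 classical (H2-L counted), 8 of 16 non-classical and 6 of 10 class II genes had changes above 0. Under quantile normalization 0, 7 and 5 of them had. The class medians were -0.19, -0.0034 and 0.096, beside 0.0027 for all genes. Without control lung 3, H2-Q10 was also called (-0.46, adjusted p = 0.0187), and H2-T3 too (0.37, adjusted p = 0.0469). H2-T3 was called as well without control intestine 2 (0.41, adjusted p = 0.0359).

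**Figure D2:**
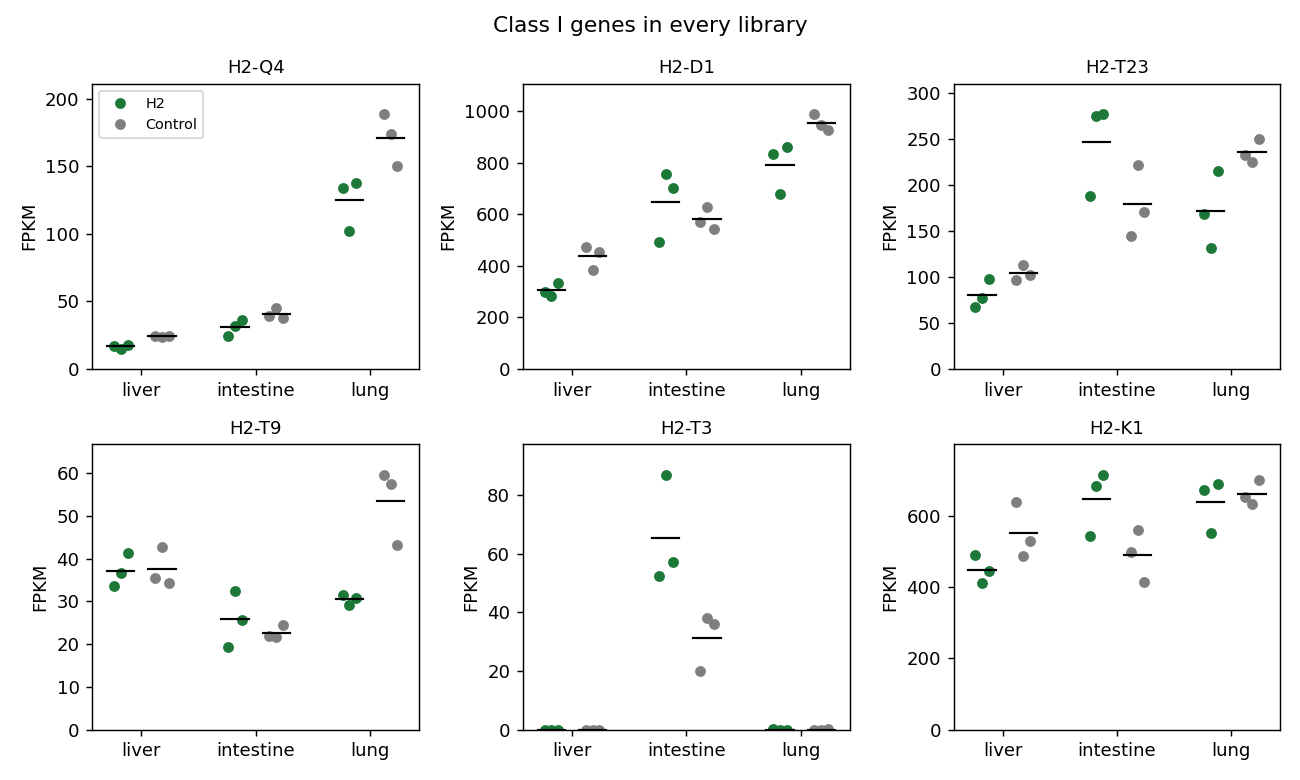
FPKM of 6 class I genes in each of the 18 libraries by organ, H2 (green) left of control (grey), with a bar at the mean of 3 libraries. H2-Q4 lies lower under H2 in each organ without overlap, H2-T9 does so in the lung, and H2-T3 lies higher in H2 intestines and near 0 in liver and lung.

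In the liver most class I changes lay below 0 in H2 mice, but no gene passed the test. H2-D1, which presents peptides to CD8 T cells, measured 299.7, 284 and 333 FPKM in H2 livers against 472, 385 and 456 FPKM in control livers, without overlap (-0.51 ± 0.13, adjusted p = 0.167). H2-K1, its classical partner, measured 490.5, 411 and 444 FPKM in H2 livers against 638, 487 and 530.0 FPKM in control livers (-0.29 ± 0.14, adjusted p = 0.284). H2 liver 1 lay within the range of the controls. Together with H2-L, H2-D1 gave 356, 305 and 361 FPKM in H2 livers and 520, 420 and 536 FPKM in control livers, again without overlap.

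Among non-classical genes of the liver, H2-Q7, a gene of the Qa-2 antigen, measured 8.76, 7.58 and 7.94 FPKM in H2 livers against 18.4, 10.2 and 13.9 FPKM in control livers (-0.70 ± 0.20, adjusted p = 0.168). The groups did not overlap, and control liver 2 lay nearest to the H2 livers. H2-Q4 stood at -0.52 ± 0.12 (adjusted p = 0.167). H2-T23, the Qa-1 gene whose product is read by the inhibitory receptor NKG2A, measured 67.6, 77.1 and 98.2 FPKM in H2 livers against 97.3, 113 and 102 FPKM in control livers (-0.37 ± 0.16, adjusted p = 0.245). H2 liver 3 overlapped the controls. H2-Q10 measured 465, 550.1 and 479 FPKM in H2 livers against 669, 474 and 580 FPKM in control livers (-0.20 ± 0.16). H2-M3, which presents formylated bacterial peptides, measured 2.28, 2.10 and 2.74 FPKM in H2 livers against 1.96, 1.57 and 2.203 FPKM in control livers (0.21 ± 0.14). Both of the last genes overlapped between the groups. Without control liver 2 the change of H2-Q10 was -0.33 (adjusted p = 0.111).

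Of the 19 members tested in the liver 0 were called, where 0.0199% of all genes were. Lower levels at an unadjusted p under 0.05 were seen for 3 members, and higher levels for 0, a share below the 21% of all genes that passed in either direction. The same 3, H2-Q4, H2-D1 and H2-Q7, lay entirely below the controls and 0 lay above, while 13.1% of all genes lay below and 12.2% above. Changes were below 0 for 3 of 3 classical (H2-L counted), 9 of 11 non-classical and 4 of 4 class II genes. Their medians were -0.51, -0.21 and -0.34, beside -0.023 for all genes. Without control liver 2, H2-D1 (-0.60, adjusted p = 0.0129), H2-Q4 (-0.54, 0.0220), H2-Q7 (-0.90, 0.00742) and H2-Q9 (-0.67, 0.00832) were called lower, and 2812 genes were called in all. Summed markers of Kupffer cells (4 of 4 with an unadjusted p under 0.05) were 97.0, 105 and 79.4 FPKM in H2 livers against 17.8, 34.8 and 20.4 FPKM in control livers. Summed macrophage markers (7 of 8) were 167, 160 and 155 FPKM against 102, 108 and 104 FPKM. Their part in the class I levels was not tested.

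In the intestine some class I genes lay higher in H2 mice and again none passed. H2-T3 measured 52.6, 86.9 and 57.1 FPKM in H2 intestines against 20.1, 38.1 and 36.1 FPKM in control intestines, without overlap (1.05 ± 0.30, adjusted p = 0.353). H2-Q5, annotated as a polymorphic pseudogene, measured 3.78, 2.73 and 3.18 FPKM in H2 intestines against 1.46, 2.24 and 1.69 FPKM in control intestines (0.60 ± 0.18, adjusted p = 0.353). H2-Bl, annotated likewise, measured 1.58, 3.31 and 3.68 FPKM in H2 intestines against 1.22, 1.499 and 0.996 FPKM in control intestines (0.74 ± 0.25, adjusted p = 0.362). All H2 libraries lay above all control libraries for these 3 genes.

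H2-Q6 measured 2.97, 2.10 and 0.00346 FPKM in H2 intestines against 3.78, 5.09 and 4.24 FPKM in control intestines (-1.21 ± 0.47, adjusted p = 0.380). Summed with its near copy H2-Q8 the values were 2.98, 2.11 and 4.92 FPKM under H2 and 3.79, 5.12 and 4.25 FPKM in controls, which overlap. H2-Q2 measured 54.8, 141 and 91.8 FPKM in H2 intestines against 66.6, 49.6 and 51.7 FPKM in control intestines, and H2-Q1 18.3, 51.1 and 39.6 FPKM against 23.7, 23.9 and 19.9 FPKM. In both genes H2 intestines 2 and 3 lay above the controls. H2 intestine 1 lay among the controls for H2-Q2 and below them for H2-Q1. H2-T23 measured 188, 275 and 277 FPKM in H2 intestines against 145, 222 and 171 FPKM in control intestines (0.46 ± 0.25, adjusted p = 0.458).

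The classical genes of the intestine overlapped between groups. H2-K1 measured 542, 683 and 714 FPKM in H2 intestines against 499, 559 and 414 FPKM in control intestines (0.40 ± 0.21, adjusted p = 0.461). H2-D1 measured 492, 756 and 702 FPKM in H2 intestines against 572, 628 and 542 FPKM in control intestines (0.14 ± 0.23), and under quantile normalization its change was -0.18. H2 intestine 1 was the lowest H2 library for both. H2-M3 measured 3.85, 4.28 and 3.24 FPKM in H2 intestines against 5.70, 5.77 and 3.98 FPKM in control intestines (-0.35 ± 0.18). H2-Q7 measured 4.43, 3.57 and 5.64 FPKM in H2 intestines against 4.31, 8.70 and 5.64 FPKM in control intestines (-0.35 ± 0.25). H2-Q10 measured 1.14, 1.86 and 2.78 FPKM in H2 intestines against 2.31, 2.43 and 2.39 FPKM in control intestines (-0.25 ± 0.23), and all 3 genes overlapped.

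Of 29 members tested in the intestine 0 were called, where 0.0084% of all genes were. At an unadjusted p under 0.05, 3 had higher and 1 lower levels, a share close to the 12.5% of all genes that passed. Groups did not overlap for 3 members that lay higher and 2 that lay lower (H2-Q6 and H2-Q4), and for 10.6% and 8.75% of all genes. Changes were above 0 for 3 of 3 classical (H2-L counted), 10 of 15 non-classical and 5 of 10 class II genes (2, 10 and 6 under quantile normalization). The medians were 0.14, 0.15 and 0.025, beside 0.019 for all genes. H2-L measured 62.7, 47.1 and 54.6 FPKM in H2 intestines against 127, 30.3 and 30.5 FPKM in control intestines. With all 18 libraries in 1 fit, which borrows the spread of the other organs, H2-T3 was called (adjusted p = 0.0155). The enterocyte markers, all 5 with changes above 0 and 0 of 5 with an unadjusted p under 0.05, summed to 2951, 8619 and 3509 FPKM in H2 intestines against 3822, 1339 and 2193 FPKM in control intestines. H2 intestine 2 was highest in these markers as in H2-T3, H2-Q1 and H2-Q2, and also in total FPKM (1142966). Control intestine 1 came next in these markers but was the lowest intestine library in H2-T3 (20.1 FPKM). The part of the enterocyte markers in these levels was not tested.

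In the lung no class I gene passed the test. The 4 with the smallest p lay lower in H2 mice, while 6 of 15 non-classical changes were above 0. H2-T9, a gene of the T region, measured 31.5, 29.2 and 30.9 FPKM in H2 lungs against 59.6, 57.5 and 43.2 FPKM in control lungs (-0.77 ± 0.14, adjusted p = 0.172). H2-T10, annotated as a polymorphic pseudogene and known as a ligand of gamma delta T cells, measured 1.72, 1.31 and 1.55 FPKM in H2 lungs against 2.30, 2.18 and 2.19 FPKM in control lungs (-0.35 ± 0.12, adjusted p = 0.185). H2-T23 measured 168, 131 and 215 FPKM in H2 lungs against 232, 225 and 249.8 FPKM in control lungs (-0.48 ± 0.18, adjusted p = 0.199). None of these groups overlapped, and H2-Q4 (-0.46 ± 0.15, adjusted p = 0.181) did not either.

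H2-D1 measured 835, 679 and 862 FPKM in H2 lungs against 989, 949 and 928 FPKM in control lungs, also without overlap (-0.28 ± 0.12, adjusted p = 0.228). H2-K1 measured 673, 552 and 689 FPKM in H2 lungs against 653, 632 and 698 FPKM in control lungs (-0.06 ± 0.12), and its change was 0.12 under quantile normalization. H2-M3 measured 16.0, 10.7 and 14.5 FPKM in H2 lungs against 14.3, 13.8 and 13.6 FPKM in control lungs (-0.03 ± 0.15). H2-Q7 measured 61.5, 39.8 and 60.9 FPKM in H2 lungs against 28.0, 40.3 and 60.2 FPKM in control lungs (0.37 ± 0.30). It lay on average higher under H2, with overlap, and control lung 3 lay among the H2 libraries. Without it the change was 0.64 (adjusted p = 0.103). H2-Q10 measured 3.21, 2.73 and 1.86 FPKM in H2 lungs against 6.96, 4.79 and 2.82 FPKM in control lungs (-0.66 ± 0.29, adjusted p = 0.225).

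Of 29 members tested in the lung 0 were called, where 0.00745% of all genes were. At an unadjusted p under 0.05, 4 had lower and 0 higher levels, a share below the 23.1% of all genes that passed. Groups did not overlap for 6 members that lay lower and 0 that lay higher, and for 15.9% and 14.1% of all genes. Changes were below 0 for 3 of 3 classical (H2-L counted), 9 of 15 non-classical and 5 of 10 class II genes. The medians were -0.057, -0.040 and -0.0082, beside -0.0036 for all genes. After quantile normalization 2 of 3 classical changes were above 0. Without control lung 3, H2-T9 (-0.92, adjusted p = 0.00762) and H2-Q10 (-0.93, adjusted p = 0.0324) were called lower, with 3237 genes called in all. With all 18 libraries in 1 fit H2-T9 was called (adjusted p = 0.0168). The monocyte markers, 3 of 3 with lower levels at an unadjusted p under 0.05, summed to 90.9, 108 and 83.3 FPKM in H2 lungs against 208, 168 and 131 FPKM in control lungs. Their part in the class I levels was not tested.

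**Figure D3:**
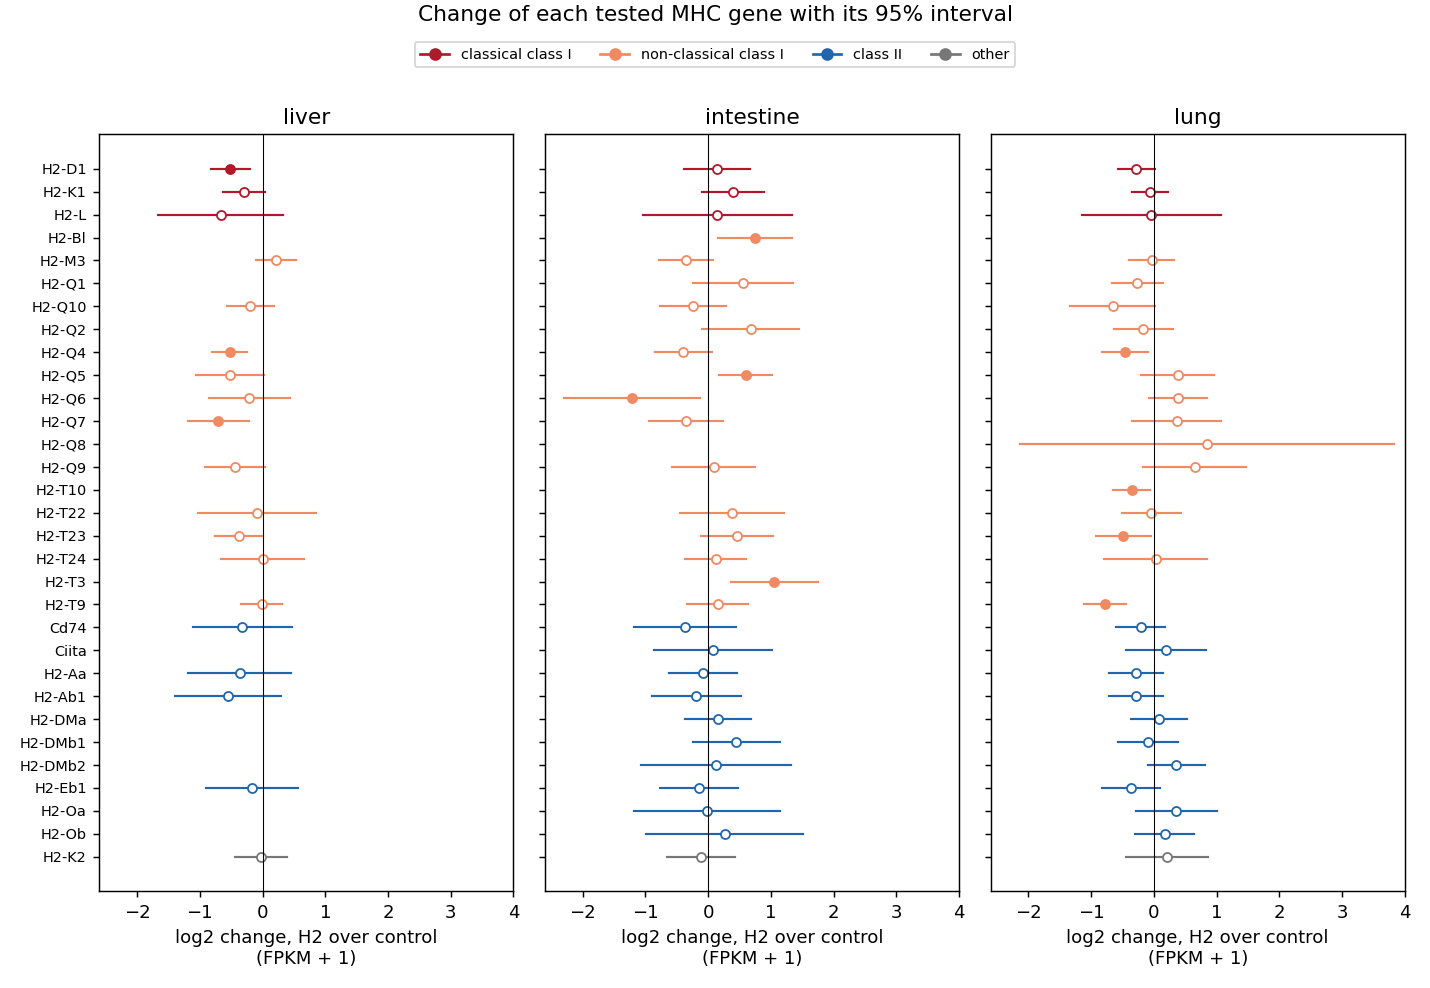
Log2 change of H2 over control on FPKM + 1 for each tested member in 3 organs, with its 95% interval by limma; filled points have an unadjusted p under 0.05 and no point passed adjustment. Filled class I points lie below 0 in the liver (3) and the lung (4) and mostly above 0 in the intestine (3 of 4), and no class II point is filled.

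No class II gene had an unadjusted p under 0.05 in any organ. In the lung, where these genes were most abundant, H2-Aa measured 359, 237 and 315 FPKM in H2 lungs against 342, 425 and 332 FPKM in control lungs (-0.28, 95% interval -0.71 to 0.15). Its partner H2-Ab1 measured 179, 112 and 161 FPKM in H2 lungs against 180.1, 176 and 183 FPKM in control lungs (-0.28, interval -0.71 to 0.15). H2-Eb1, the beta chain of the E molecule, measured 119, 72.8 and 111 FPKM in H2 lungs against 131, 131 and 120.0 FPKM in control lungs (-0.36, interval -0.82 to 0.10). The groups overlapped for the A chains and not for H2-Eb1, and H2 lung 2 was the lowest library for all 3.

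Cd74 measured 404, 295 and 374 FPKM in H2 lungs against 483, 371 and 381 FPKM in control lungs (-0.20, interval -0.60 to 0.19). Ciita measured 2.07, 1.33 and 3.22 FPKM in H2 lungs against 1.40, 1.38 and 2.59 FPKM in control lungs (0.19, interval -0.44 to 0.82). The loading genes H2-DMa and H2-DMb1 were at 14.1, 11.1 and 14.2 FPKM and at 30.7, 17.9 and 22.3 FPKM in H2 lungs, against 9.50, 12.8 and 15.3 FPKM and 21.6, 27.2 and 25.9 FPKM in control lungs (0.08 ± 0.19 and -0.10 ± 0.20). H2-Oa was at 2.96, 3.64 and 3.56 FPKM in H2 lungs against 1.25, 3.72 and 2.74 FPKM in control lungs (0.36 ± 0.27), and H2-Ob at 1.68, 2.87 and 1.55 FPKM against 1.35, 1.92 and 1.69 FPKM (0.17 ± 0.20). All of these overlapped. The intervals leave room for a fall of the A chains by up to 0.71 on the log2 scale and for a rise of Ciita by up to 0.82. Without control lung 3 the changes of Ciita and H2-DMa were 0.39 and 0.23, and neither was called. Summed dendritic cell markers, which bear on class II, were 50.4, 38.2 and 48.0 FPKM in H2 lungs against 29.6, 27.4 and 42.6 FPKM in control lungs, with 2 of 7 tested markers higher and 1 lower at an unadjusted p under 0.05. Most of the gap came from Clec9a, at 20.8, 14.7 and 16.8 FPKM in H2 lungs against 1.13, 2.83 and 13.3 FPKM in control lungs. Of the 7 tested markers, 5 had changes above 0 and 2 below. The part of these markers was not tested.

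In the liver, H2-Aa measured 9.90, 3.36 and 8.49 FPKM in H2 mice against 8.14, 7.54 and 11.3 FPKM in controls (-0.36, interval -1.19 to 0.46). H2-Ab1 measured 5.21, 2.76 and 7.14 FPKM in H2 livers against 7.42, 4.73 and 11.3 FPKM in control livers (-0.55, interval -1.39 to 0.30). H2-Eb1 measured 2.51, 1.80 and 4.50 FPKM in H2 livers against 2.25, 2.92 and 5.06 FPKM in control livers (-0.17 ± 0.31). Cd74 measured 15.3, 9.32 and 21.2 FPKM in H2 livers against 15.4, 14.7 and 27.4 FPKM in control livers (-0.32 ± 0.34). All overlapped, and H2 liver 2 was lowest in each. Without control liver 2 the change of H2-Ab1 was -0.82 (adjusted p = 0.114). Over the 11 class II genes the sum was 34.0, 18.2 and 43.4 FPKM in H2 livers against 34.4, 30.7 and 56.5 FPKM in control livers. The Kupffer and macrophage markers given above lay higher in the same H2 livers, without overlap. B cell markers summed to at most 0.739 FPKM in any liver library. Ciita was at most 0.061, H2-DMa at most 0.745 and H2-DMb1 at most 0.921 FPKM there, and these were not tested.

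In the intestine, Cd74 measured 94.98, 77.1 and 174 FPKM in H2 mice against 104, 196 and 134 FPKM in controls (-0.37, interval -1.18 to 0.44). H2-Aa measured 78.8, 80.8 and 113 FPKM in H2 intestines against 73.8, 109 and 105 FPKM in control intestines (-0.08 ± 0.23). H2-Ab1 measured 41.3, 40.1 and 70.0 FPKM against 39.6, 77.0 and 56.4 FPKM (-0.19 ± 0.31), and H2-Eb1 30.2, 24.2 and 42.5 FPKM against 25.8, 43.0 and 38.3 FPKM (-0.15 ± 0.27), H2 intestines before control intestines. Ciita measured 0.702, 1.21 and 1.64 FPKM in H2 intestines against 0.337, 2.96 and 0.613 FPKM in control intestines (0.07 ± 0.41). H2-DMa was at 5.57, 4.997 and 7.63 FPKM in H2 intestines against 3.98, 6.96 and 5.13 FPKM in control intestines (0.16 ± 0.23), and H2-DMb1 at 10.5, 5.69 and 7.34 FPKM against 3.58, 8.31 and 4.91 FPKM (0.45 ± 0.30). All overlapped. Dendritic cell markers, 2 of 3 tested with lower levels at an unadjusted p under 0.05, summed to 6.97, 5.84 and 7.69 FPKM in H2 intestines against 10.1, 10.8 and 10.7 FPKM in control intestines, and their part was not tested.

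**Figure D4:**
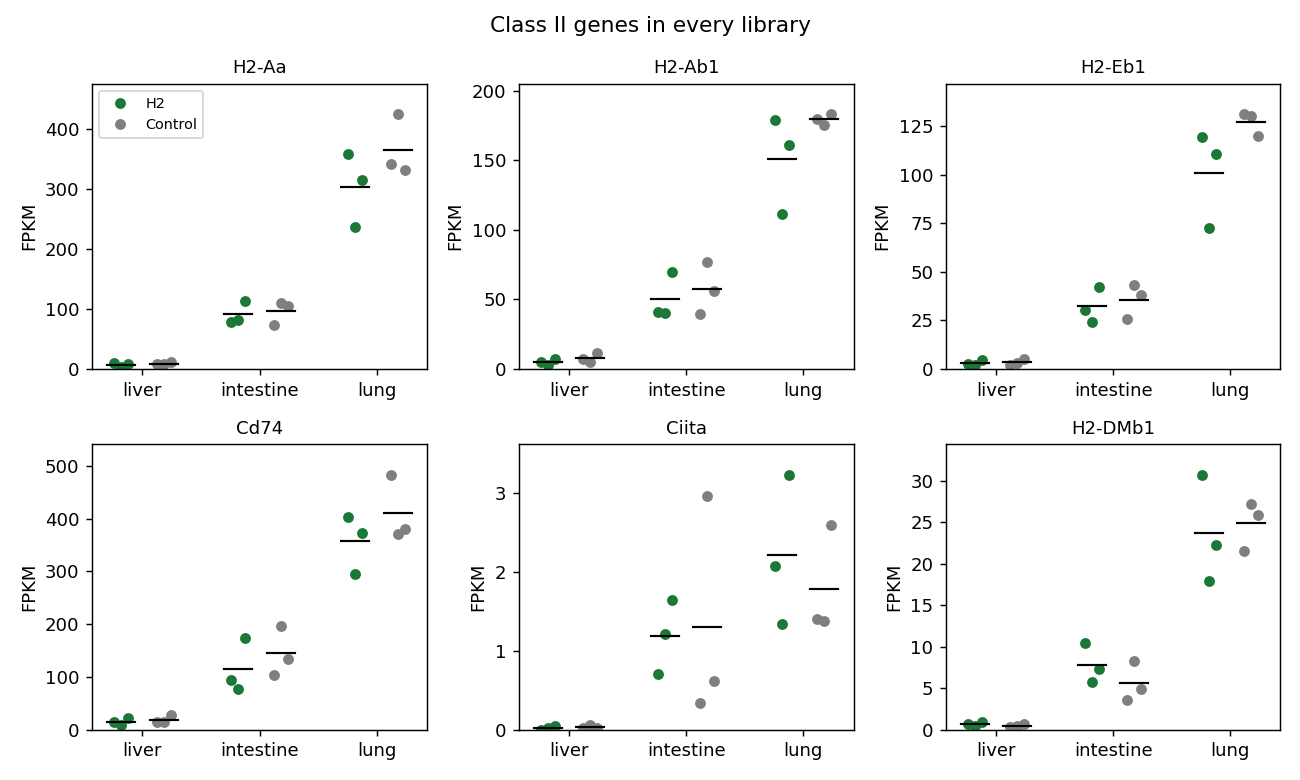
FPKM of 6 class II genes in each of the 18 libraries by organ, H2 (green) left of control (grey), with a bar at the mean of 3 libraries. The organs stand far apart, and within each organ the groups overlap except for H2-Eb1 in the lung, where all 3 H2 libraries lie below the controls.

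In the intestine 4 class II genes of low level, grouped after their values were seen, were lowest in the libraries numbered 1 of both groups. Ciita was lowest in library 1 of each group too, but control intestine 3 (0.613 FPKM) lay below H2 intestine 1 (0.702 FPKM). The pattern did not hold for H2-DMa and H2-DMb1, whose values are given above. H2-Ob measured 0.439, 2.11 and 3.76 FPKM in H2 intestines against 0.170, 2.94 and 1.69 FPKM in control intestines. H2-Oa measured 0.257, 1.82 and 1.94 FPKM in H2 intestines against 0.099, 2.76 and 1.65 FPKM in control intestines. H2-DMb2 and H2-Eb2 were also lowest in these 2 libraries, with 1.25 and 0.068 FPKM in H2 intestine 1 and 0.724 and 0.053 FPKM in control intestine 1. The 6 B cell markers summed to 5.33, 21.9 and 39.2 FPKM in H2 intestines against 3.6, 36.5 and 25.5 FPKM in control intestines. Ms4a1, which encodes the B cell antigen CD20, measured 0.819, 4.19 and 6.68 FPKM in H2 intestines against 0.452, 6.49 and 2.34 FPKM in control intestines. H2-O is known to be made mainly by B cells. The part of the B cell markers in these levels was not tested.

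**Figure D5:**
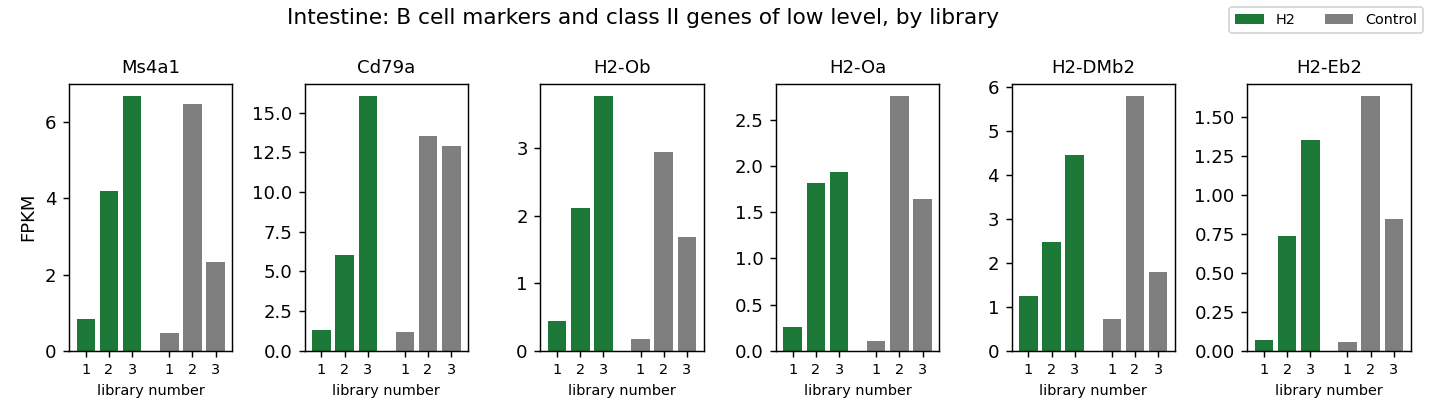
FPKM of 2 B cell marker genes and 4 class II genes in each intestine library, H2 (green) left of control (grey). Library 1 of each group is the lowest of its group in all 6 genes.

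Whether hydrogen acted differently between organs was tested on the differences of the H2 over control changes. No member of 30 was called in any of the 3 tests. Between liver and intestine 0.217% of all genes were called and 15.5% had an unadjusted p under 0.05, as 7 members had (1 higher, 6 lower in the liver). They included H2-Q5 (-1.11 ± 0.33, adjusted p = 0.141). H2-T3 and H2-Q2 were among the 7, but with liver means under 1 FPKM their difference restates the intestine change. Between liver and lung the shares were 0.239% and 12.3%, and 4 members had an unadjusted p under 0.05 (1 higher, 3 lower). H2-T9 differed by 0.76 ± 0.24 (adjusted p = 0.188). Between intestine and lung the shares were 1.24% and 19.7%, and 7 members had an unadjusted p under 0.05 (6 higher, 1 lower). H2-T9 differed by 0.93 ± 0.24 (adjusted p = 0.0666). H2-T3 was among the 7 and near 0 in the lung, so that its difference too is the intestine change alone.

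These differences moved with single libraries. Between intestine and lung, H2-T9 was called without control lung 3 (1.07, adjusted p = 0.0131), without H2 intestine 1 (1.11, 0.0236) and without H2 intestine 3 (0.91, 0.0497). Without H2 intestine 1, H2-Q1, low in the lung at 0.758 to 1.51 FPKM, was called too (1.24, adjusted p = 0.0124). Between liver and lung, H2-T9 was called without control lung 3 (0.91, adjusted p = 0.0384).

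Genes that make or feed MHC molecules were read in lists beside the members. The 15 genes of peptide loading and class I assembly had 4 lower and 0 higher levels at an unadjusted p under 0.05 in the liver, 2 higher and 0 lower in the intestine and 6 lower and 0 higher in the lung, beside 21%, 12.5% and 23.1% of all genes, and 0 were called in any organ. The list medians were -0.15, 0.28 and -0.40. Nlrc5, the class I transactivator, was the only one of 15 called in the mean over organs, where 9.62% of all genes were (-0.43 ± 0.10, adjusted p = 0.0226). It measured 2.88, 2.39 and 3.31 FPKM in H2 lungs against 5.97, 5.14 and 5.70 FPKM in control lungs. In the intestine it measured 1.14, 1.38 and 1.62 FPKM under H2 against 1.91, 3.46 and 1.61 FPKM in controls, and in the liver 1.94, 1.71 and 2.34 FPKM under H2 against 2.35, 2.16 and 1.89 FPKM in controls. The lung alone kept its groups apart. The call was lost without H2 lung 2 (adjusted p = 0.0510) and with 1 mean over organs (0.0979).

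Tap1, a subunit of the peptide transporter, measured 15.2, 12.3 and 23.9 FPKM in H2 lungs against 53.6, 32.1 and 30.0 FPKM in control lungs (-1.13 ± 0.30, adjusted p = 0.172). Psmb8, an immunoproteasome subunit, measured 71.5, 50.9 and 66.3 FPKM in H2 lungs against 128, 97.2 and 95.7 FPKM in control lungs (-0.76 ± 0.18, adjusted p = 0.172). B2m, the light chain of class I, measured 1668, 2029 and 1951 FPKM in H2 intestines against 870.0, 1657 and 1088 FPKM in control intestines (0.69 ± 0.28, adjusted p = 0.387). The groups did not overlap for any of these 3, while 15.9% of all genes lay lower without overlap in H2 lungs and 10.6% higher in H2 intestines. Without control lung 3, Tap1 (adjusted p = 0.0373), Psmb8 (0.0304) and Nlrc5 (0.0201) were called lower in the lung.

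The 13 genes of class II transcription and peptide processing had 2 higher and 0 lower levels at an unadjusted p under 0.05 in the liver, 1 and 0 in the intestine and 1 and 4 in the lung, beside the same shares of all genes. In the mean over organs 1 of 13 was called, a share no higher than that of all genes, the transcription factor gene Creb1 (0.33 ± 0.09, adjusted p = 0.0367), whose call was lost in 14 of 18 fits with 1 library left out and with 1 mean over organs (adjusted p = 0.121). Ifi30, a lysosomal thiol reductase that opens disulfide bonds of antigens, measured 25.3, 23.7 and 24.4 FPKM in H2 livers against 11.7, 16.5 and 15.5 FPKM in control livers (0.72 ± 0.15, adjusted p = 0.150). In the lung it measured 164, 139 and 166 FPKM under H2 against 230, 196 and 202 FPKM in controls (-0.42 ± 0.12, adjusted p = 0.172). Both pairs of groups stood apart, in opposite directions. Ctss, the protease that trims the invariant chain, measured 263, 184 and 217 FPKM in H2 lungs against 499, 435 and 303 FPKM in control lungs (-0.88 ± 0.22, adjusted p = 0.172). In the intestine it measured 289, 338 and 206 FPKM under H2 against 200.2, 211 and 227 FPKM in controls, with overlap (0.36 ± 0.23). Without control liver 2 Ifi30 was called in the liver (adjusted p = 0.00864), and without control lung 3 Ctss was called in the lung (0.0143).

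In the interferon-gamma axis (9 genes, 8 tested) 1 gene was called in the mean over organs, the feedback inhibitor Socs1 (-1.27 ± 0.22, adjusted p = 0.00893). Of all genes, 9.62% were called in this test, which was also used for the lists that follow. Among 9 genes of T cell co-stimulation, 7 of them tested, 1 was called, the inhibitory ligand gene Cd274 (-1.36 ± 0.23, adjusted p = 0.00968). Socs1 measured 6.92, 9.53 and 8.83 FPKM in H2 livers against 26.7, 11.2 and 31.0 FPKM in control livers, and Cd274 8.12, 4.83 and 9.76 FPKM in H2 lungs against 53.4, 33.6 and 15.1 FPKM in control lungs. Neither group pair overlapped, and without overlap 13.1% of all genes lay lower in H2 livers and 15.9% in H2 lungs. Both were also called in the liver without control liver 2 (adjusted p = 0.00147 for Socs1 and 0.0114 for Cd274) and in the lung without control lung 3 (0.00711 and 0.0104). With 1 mean over organs the adjusted p was 0.0294 for Socs1 and 0.0589 for Cd274. Among 11 MHC-like genes outside the complex, 8 of them tested, Mill2 rose (0.48 ± 0.13, adjusted p = 0.0410) and Procr, the endothelial protein C receptor, fell (-1.18 ± 0.28, adjusted p = 0.0262). The Mill2 call was lost in 14 and the Procr call in 6 of 18 fits with 1 library left out, and with 1 mean over organs both were lost (adjusted p = 0.104 and 0.115). Of 9 receptors that read MHC molecules, 3 were tested in the mean over organs and 0 were called.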

How the data were processed

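RNA libraries were made with a stranded mRNA kit, per the labels' protocols. The authors deposited FPKM values per gene symbol. Build mm10 and the tools Cufflinks 2.2.1, SAMtools 0.1.19, Bowtie2 2.2.3 and TopHat2 2.0.13 are named, per the submitters' processing notes. The annotation and the options are not given in the sources used here. Cufflinks shares reads among similar genes by estimate, which bears on the class I family. Of 24346 symbols, 4694 were at 0 in every library. One file held a copy of another control lung library, and that 1 column was not used. FPKM give no counts, so depth is implied only and no counting intervals are given.

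H2 and control were compared with limma 3.58.1 in R 4.3.3 on log2(FPKM + 1), with an intensity trend, two-sided, and Benjamini-Hochberg adjustment over all genes with a mean of at least 1 FPKM (10041 in the liver, 11910 in the intestine, 13424 in the lung, 13362 over all 18 libraries). A gene was called at an adjusted p under 0.05. Fold changes on this scale understate changes of low genes. An exact permutation test of 3 against 3 cannot go below 0.1 and was not used. On simulated data with 100 genes changed per size, 72%, 52% and 63% of log2 changes of 1 were recovered in liver, intestine and lung, and 93%, 83% and 93% of changes of 2. The changed genes had a mean log2(FPKM + 1) above 2, and noise was drawn for each gene by itself. Shifts shared by many genes of a library, lower genes and changes under 1 were not simulated, so recovery of these is not known. Python 3.11.15, pandas 2.3.3, numpy 2.4.6 and matplotlib 3.10.9 were used. Alternatives changed the pseudocount, the filter, the scaling, the variance model, the libraries and a block for the replicate number. The labels do not say that libraries came from separate mice, so p-values measure only the spread between these samples.

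The members and lists were chosen with earlier results of these data known. Values in every library are given for genes fixed by role, for members called and for the 4 members with the smallest p per organ. H2-Q1, H2-Q2, H2-Q8, H2-Q9, H2-DMb2 and H2-Eb2 were named after their values were seen.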

Additional observations from a re-analysis of the deposited data

Results flagged for a closer look

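Among genes that process antigens beside the MHC genes, 2 had H2 over control changes that differed between organs by a test of the difference itself. Both belong to the 13 genes of class II transcription and peptide processing, of which 1 was called for liver minus lung and 1 for intestine minus lung. Of all tested genes, 0.239% and 1.24% were called there. The change of Ifi30 in the liver minus that in the lung was 1.14 ± 0.22 on the log2 scale (SE, 95% interval 0.68 to 1.61, limma adjusted p = 0.0436). The change of Ctss in the intestine minus that in the lung was 1.23 ± 0.27 (interval 0.65 to 1.82, adjusted p = 0.0480). The Ifi30 call was lost in 10 of 12 and the Ctss call in 9 of 12 fits with 1 library left out.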

How the results depend on the processing

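Counts below are genes called in all unless members are named. In the liver 0 genes were called with a pseudocount of 0.1, no filter, a filter of 5 FPKM or the replicate block, 445 with 18 libraries in 1 fit, and 2812 with 4 members lower without control liver 2 (Ctss then -0.025). In the intestine 2 were called with robust variances, 3 with the block, 6 without both libraries numbered 1 (Ciita -0.065), and 312 with 1 member higher in 1 fit. H2-Oa was 0.16 with a pseudocount of 0.1 and 0.053 after quantile normalization, H2-D1 -0.18 after quantile normalization too, and Ciita -0.0067 with a pseudocount of 5. In the lung 2 were called without a filter, 818 with 1 member lower in 1 fit, and 3237 with 2 members lower without control lung 3; quantile normalization gave 0.12 for H2-K1 and 0.18 for B2m. For the mean over organs the block gave 680 genes with 1 member higher (H2-T3), leaving out both control libraries 3923 with 2 members lower, leaving out both numbered 1 493, and 1 mean over organs 16 with 0 members lower; H2-K1 was -0.022 after quantile normalization.

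Liver minus intestine gave 15 and 61 genes with pseudocounts of 0.1 and 5, 61 without a filter, 7 at 5 FPKM, 48 with robust variances, 914 with 1 member lower without both control libraries and 44 without both numbered 1. Liver minus lung gave 15, 139, 120, 2 and 49 in that order, 7 with the block and 1008 with 1 member higher and 1 lower without both control libraries. Intestine minus lung gave 29, 351 (1 member higher), 402 and 38, 46 and 45 after median-of-ratios and quantile scaling, 86 with the block, 1266 with 1 member higher without both control libraries and 80 with 1 higher without both numbered 1. Between control lungs and livers 3 members were lower without a filter, 4 after median-of-ratios scaling, and 12 higher and 3 lower after quantile normalization. Between control lungs and intestines 6 were lower without a filter, and between control intestines and livers 11 higher after quantile normalization.

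With each library left out in turn, the liver gave 0 to 2812 genes and 0 to 4 members lower, and H2-Aa ran from -0.62 to 0.042, H2-Eb1 -0.44 to 0.085, B2m -0.24 to 0.045, Ctss -0.025 to 0.095 and Nlrc5 -0.15 to 0.0052. The intestine gave 2 to 16 genes, with H2-Aa -0.25 to 0.028, H2-Ab1 -0.44 to 0.045, H2-Eb1 -0.36 to 0.036, Ciita -0.23 to 0.55, H2-DMa -0.0018 to 0.34, H2-Oa -0.53 to 0.38, H2-Ob -0.23 to 0.74 and Psmb8 -0.0096 to 0.65. The lung gave 1 to 3237 genes and 0 to 2 members lower, with H2-K1 -0.12 to 0.044, H2-M3 -0.14 to 0.12, Ciita -0.029 to 0.40, H2-DMa -0.090 to 0.23, H2-DMb1 -0.30 to 0.076, H2-Ob -0.016 to 0.29 and B2m -0.19 to 0.087. The mean over organs gave 313 to 2859 genes, 0 to 1 members higher and 1 to 2 lower, with H2-K1 -0.023 to 0.057, Ciita -0.018 to 0.24, H2-Oa -0.054 to 0.25 and H2-Ob -0.018 to 0.30. Organ differences gave 10 to 783 genes with 0 to 1 members lower (liver minus intestine), 2 to 638 with 0 to 1 higher (liver minus lung) and 25 to 1096 with 0 to 2 higher (intestine minus lung). The causes were not tested.

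Same-numbered H2 and control libraries of an organ showed no steady pairing. The correlations of their deviations were 0.33, -0.08 and 0.03 in the liver, 0.16, -0.11 and -0.03 in the intestine and -0.01, 0.12 and 0.01 in the lung. Libraries of different number gave -0.29 to 0.25 in the liver, -0.15 to 0.17 in the intestine and -0.10 to 0.07 in the lung. Same numbers were not compared across organs. The fits without control liver 2 and control lung 3, and without the intestine libraries numbered 1, were chosen after seeing the data. Over all alternatives, 2383 values stayed the same, which for changes means direction and side of the threshold and for counts of genes equal or close numbers. Among the rest, 134 counts moved, 77 changes fell short of the threshold, 55 newly passed it and 44 reversed. Depth is implied only, and members under 1 FPKM could not be compared.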
